A study of Mus musculus with 16 samples.

Results

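Accessible chromatin at 9 meiotic genes was followed in male mouse germ cells before meiosis: *Stra8*, *Meioc*, *Rec8*, *Sycp1*, *Sycp3*, *Hormad1*, *Spo11*, *Prdm9* and *Dmc1*. They were taken from a list by name, by a rule that uses no measured value but was written with earlier results of these data known, and are 9 of 49939 annotated genes, 21883 of them protein-coding. The assay was ATAC-seq: a transposase cuts into DNA that is not packed into closed chromatin and tags it for sequencing, so that open stretches appear as peaks. The germ cells came from testes of Mvh-Venus transgenic mice, a reporter strain in which germ cells fluoresce, at E13.5, E16.5, P0 and P3 (E counts days of embryonic development, P days after birth). All were either *Morc1* (+/-), here called heterozygous, or *Morc1* (-/-), here called knockout. All groups therefore carried the reporter and at least 1 mutant *Morc1* copy, and no wild-type group was included. The labels do not describe the mutant allele. *Morc1* encodes a germ-cell ATPase that takes part in transposon silencing.

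The 16 samples form 8 groups of 2, and each group has 1 deposited peak list with no value per peak and no value per sample. The P0 lists of both genotypes were identical in every row, as were the P3 lists, so 6 distinct lists were used, and a comparison of genotypes was possible only before birth. The genotype behind the P0 and P3 lists is therefore uncertain, which holds for every value given for these stages. The lists held 39559 (E13.5 knockout) to 67258 (P0) peaks, and nearly all peaks were 501 bp wide. The read depth is unknown, no difference has a replicate check, and a missing peak means only that none was listed. Of the germ cell markers, *Ddx4* (the gene of the Mvh-Venus reporter), *Dazl* and *Mael* had a peak within 1 kb of the gene start in all 6 lists, *Dppa3* and *Pou5f1* in some lists and *Nanos2* in none. Of 17 markers of Sertoli, Leydig, stromal, peritubular, endothelial and blood cells, 11 had none in any list and 3 (*Cldn11*, *Cyp11a1* and *Myh11*) had one in all 6. Of the other 3, the Sertoli cell marker *Wt1* had one in 5 lists (not at P3), *Acta2* at P0 and P3, and *Pdgfra* in E16.5 heterozygous cells. For markers without a listed start, among them *Dppa3*, *Wt1* and *Myh11*, a peak within 1 kb of either outer end was counted. Such a peak need not lie at the start. In the gene bounds plus 5 kb on each side, *Dhh*, *Cdh5*, *Ptprc* and *Nanos2* still had a peak in all 6 lists. *Pecam1*, *Star*, *Insl3* and *Cyp17a1* had one there in some lists, and *Sox9*, *Amh*, *Hsd3b1* and *Hba-a1* in none. Within 1 kb of the start, 3 of 6 germ cell markers had a peak in all 6 lists, beside 54.0% of all protein-coding genes.

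Meiosis is the pair of divisions that makes haploid germ cells. In the male it starts only after birth, later than the stages studied here. Germ cells of the fetal testis stop dividing, whereas germ cells of the fetal ovary enter meiosis. Entry requires STRA8, which retinoic acid induces, and MEIOC, which stabilises the meiotic programme. Chromosomes are then held by meiotic cohesin (REC8), organised on axes (SYCP3, HORMAD1) and joined by the synaptonemal complex (SYCP1). PRDM9 marks recombination hotspots, SPO11 cuts the DNA there, and DMC1 drives strand exchange with the homologous chromosome. In other cells many promoters of this class are kept silent by repressors that include E2F6 and the MGA-MAX pair, which bind E2F-type sites and E-boxes.

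The promoters of 4 genes that had a peak at the start in all 6 lists, followed by that of *Stra8*, which did not, are shown. The 4 all hold at least 1 of the motifs searched and do not stand for every member with such a peak. Each is the 250 bases before a transcription start listed by RefSeq (build GRCm38.p6), written 5′ to 3′ on the strand of the gene. Capitals mark CACGTG (an E-box, its own reverse complement), TTCCCGC or its reverse complement GCGGGAA (an E2F-type site) and CNCCTCAG (a STRA8-type motif, searched on both strands).
Sycp3 (chr10:88459337-88459586, + strand): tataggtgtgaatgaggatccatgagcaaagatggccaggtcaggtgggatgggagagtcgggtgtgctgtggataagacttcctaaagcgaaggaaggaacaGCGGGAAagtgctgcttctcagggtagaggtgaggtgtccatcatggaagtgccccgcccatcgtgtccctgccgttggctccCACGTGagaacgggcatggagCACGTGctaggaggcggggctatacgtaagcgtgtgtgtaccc
Hormad1 (chr3:95559427-95559676, + strand): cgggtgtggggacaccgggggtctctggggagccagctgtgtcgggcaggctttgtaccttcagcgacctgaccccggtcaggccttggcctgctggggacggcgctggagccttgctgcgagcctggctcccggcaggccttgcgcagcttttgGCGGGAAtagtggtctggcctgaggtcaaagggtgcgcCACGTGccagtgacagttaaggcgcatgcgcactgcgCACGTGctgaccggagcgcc
Sycp1 (chr3:102936101-102936350, - strand): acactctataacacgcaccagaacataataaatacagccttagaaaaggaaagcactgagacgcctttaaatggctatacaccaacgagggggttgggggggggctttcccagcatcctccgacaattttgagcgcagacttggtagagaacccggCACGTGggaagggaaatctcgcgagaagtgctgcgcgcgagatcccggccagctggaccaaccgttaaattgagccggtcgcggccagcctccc
Prdm9 (chr17:15564355-15564604, - strand): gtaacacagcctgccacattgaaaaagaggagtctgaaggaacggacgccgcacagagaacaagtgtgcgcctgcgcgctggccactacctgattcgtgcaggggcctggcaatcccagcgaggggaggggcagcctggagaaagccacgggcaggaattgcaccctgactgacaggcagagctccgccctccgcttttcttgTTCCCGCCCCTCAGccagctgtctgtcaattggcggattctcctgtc
Stra8 (chr6:34920698-34920947, + strand): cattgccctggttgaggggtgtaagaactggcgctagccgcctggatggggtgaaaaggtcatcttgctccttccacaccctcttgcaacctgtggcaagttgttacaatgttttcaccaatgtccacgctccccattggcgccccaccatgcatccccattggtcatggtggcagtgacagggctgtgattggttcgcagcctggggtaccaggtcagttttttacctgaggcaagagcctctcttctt
In *Prdm9* the capitals are 1 E2F-type site and 1 STRA8-type motif that share a base. The other entries hold 3 motifs (*Sycp3*), 3 (*Hormad1*), 1 (*Sycp1*) and 0 (*Stra8*). Of the genes open in all 6 lists but not printed, *Meioc* held 1 E2F-type site, and *Rec8* and *Dmc1* held 0 motifs, like *Stra8*. The table of starts had an entry for 8 of the 9 genes and none for *Spo11*.

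All 9 genes had at least 1 peak in the gene bounds plus 5 kb on each side in each of the 6 lists. This is not particular to them, because 66.3% of protein-coding genes had a peak in such a window in all 6 lists, and the share per list was 73.0% in both genotypes at E13.5, 75.6% and 76.8% in E16.5 heterozygous and knockout cells, and after birth 79.4% (P0) and 73.9% (P3). The E13.5 heterozygous, E13.5 knockout, E16.5 heterozygous and E16.5 knockout lists each held 10 peaks in the 9 windows, the P0 list held 12 and the P3 list 11. Merged over the lists, these peaks formed 15 regions, of which 8 were present in all 6 lists and 3 in a single list. Over the whole genome 16.3% of 107032 merged regions were present in all 6 lists, against 73.3% of regions within 1 kb of a listed protein-coding start and 9.1% of regions elsewhere.

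**Figure D1:**
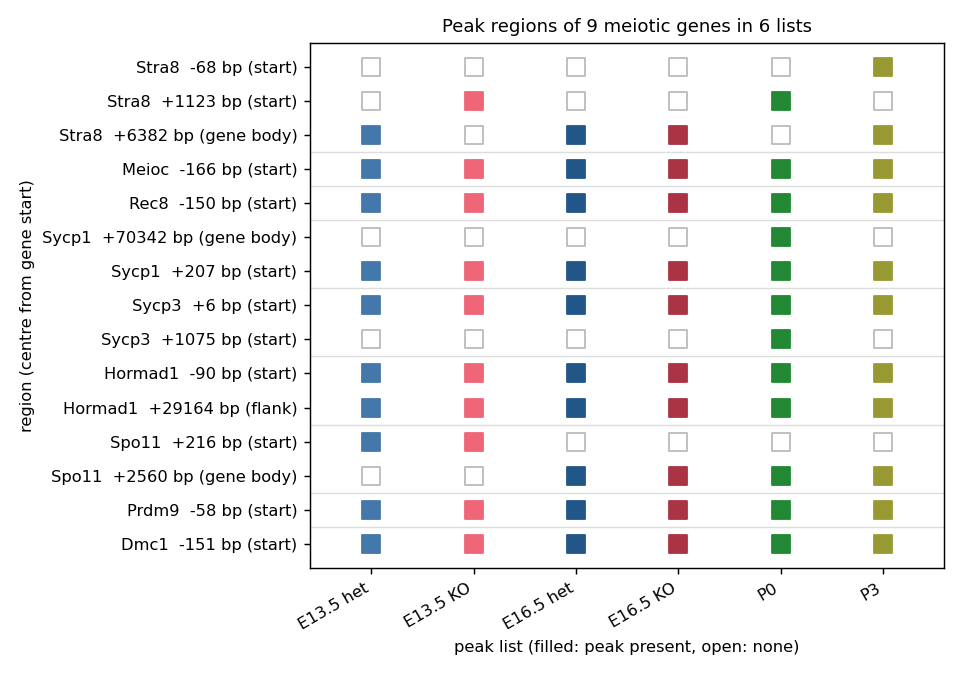
Each row is 1 of the 15 regions of the 9 genes, labelled by the distance of its centre from the gene start in bp, and each column is 1 peak list. Filled squares mark a peak. Of the 15 rows 8 are filled in all 6 columns, and no row of *Stra8* or *Spo11* is among them.

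Open starts dominated the pattern. Of the 8 genes with a listed start, 7 (*Meioc*, *Rec8*, *Sycp1*, *Sycp3*, *Hormad1*, *Prdm9* and *Dmc1*) had a peak within 1 kb of it in all 6 lists, at every stage and in both genotypes at E13.5 and E16.5. Among 17491 protein-coding genes with a listed start this held for 55.0%, and 32.2% had no start peak in any list. Per list the share of these genes with a start peak was 60.5% in E13.5 heterozygous, 60.9% in E13.5 knockout, 61.5% in E16.5 heterozygous and 62.3% in E16.5 knockout cells, and after birth 63.8% (P0) and 60.0% (P3). *Stra8* and *Spo11* were the exceptions.

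Among the entry regulators, *Meioc* (gene ID 268491, chromosome 11, 102665351 to 102682240, + strand) had 1 region, chr11:102665145-102665693. Its peak was centred 150 bp before the listed start in E13.5 heterozygous cells, and the E13.5 knockout peak lay 15 bp further upstream. The centre was 168 and 156 bp before the start in E16.5 heterozygous and knockout cells, 142 bp before it at P0 and 190 bp before it at P3. All 6 peaks covered the start, and their centres lay within 48 bp of one another. Over the 17464 regions that hold exactly 1 peak of each list, the median range of centres was 99 bp, with quartiles of 58 and 166 bp.

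*Stra8* (gene ID 20899, chromosome 6, 34920163 to 34939344, + strand) differed from this. It was the only member with peaks in 3 separate places, none of which was open in all lists. A peak over the listed start (34920948) was present at P3 only, at chr6:34920630-34921130, centred 68 bp before it. A second region lay inside the gene, centred 1127 bp after the start in E13.5 knockout cells (chr6:34921825-34922325) and 1120 bp after it at P0 (chr6:34921818-34922318). Further into the gene lay another region, centred 6327 to 6438 bp after the start, at chr6:34927025-34927636, and was present in E13.5 heterozygous cells, in both genotypes at E16.5 and at P3.

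The 2 regions inside *Stra8* were thus never present in the same list. The deeper one was listed together with the start region at P3. Of all merged regions, 0.217% were found at P0 and in E13.5 knockout cells alone, and 0.0719% in every list except those. For the pattern of the start region, P3 alone, the share was 3.17%. The patterns were picked after they were seen, so these shares do not measure how unusual *Stra8* is. With the window of 1 kb the second region touches the start window by its edge, which gives *Stra8* a start peak in 3 lists (E13.5 knockout, P0 and P3), a pattern shown by 0.0629% of protein-coding genes with a listed start. With 500 bp only the P3 peak remains, which 0.189% of 17491 protein-coding genes showed at that window.

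**Figure D2:**
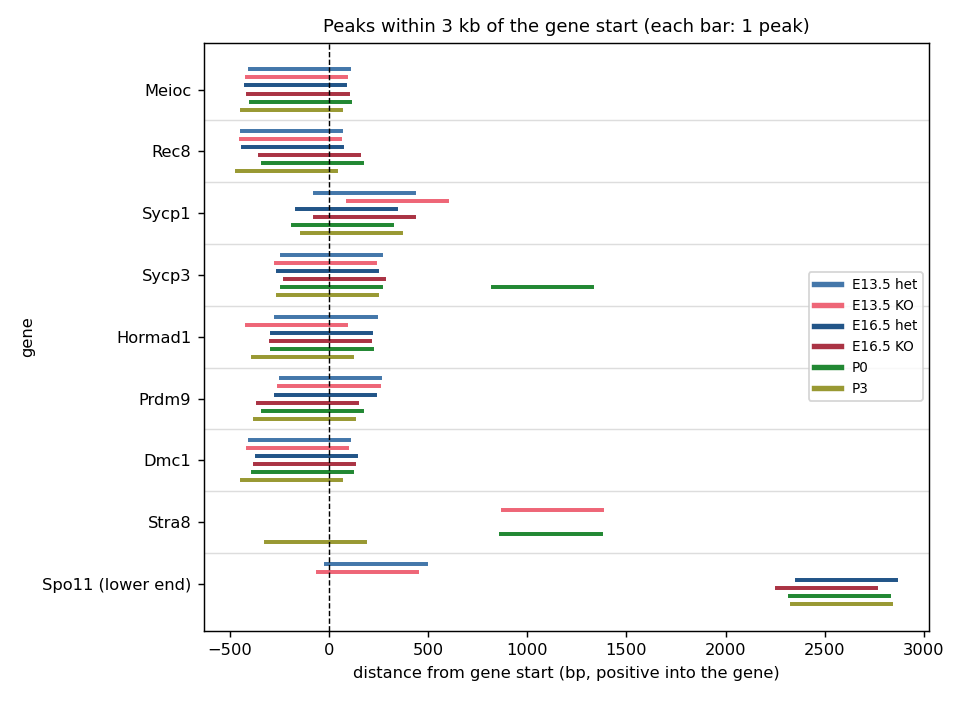
Each bar is 1 peak of 501 bp, placed by its distance in bp from the gene start (dashed line), for peaks centred within 3 kb; colours are the 6 lists, and the *Spo11* line is its lower outer end. Bars of 7 genes stack near 0 in all lists, whereas those of *Stra8* and *Spo11* change place between lists.

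*Rec8* (gene ID 56739, chromosome 14, 55618002 to 55625395, + strand), the meiotic cohesin subunit, had 1 region at chr14:55617702-55618331. Its peaks were centred 189, 193, 184 and 96 bp before the listed start in E13.5 heterozygous, E13.5 knockout, E16.5 heterozygous and E16.5 knockout cells, 85 bp before it at P0 and 214 bp before it at P3. All 6 covered the start. *Ipo4*, a neighbour within 5 kb, added no peak to the window.

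*Sycp1* (gene ID 20957, chromosome 3, 102818499 to 102936100, - strand) encodes the transverse filament of the synaptonemal complex and has the longest span of the 9 genes, 117.6 kb. Across this span the lists held 1 start region and, at P0 only, 1 peak in the gene body (chr3:102865508-102866008, centred 70342 bp after the start). The start peaks lay on the transcribed side, centred 181 bp after the start in E13.5 heterozygous cells, 344 bp in E13.5 knockout cells, 88 bp in E16.5 heterozygous cells, 179 bp in E16.5 knockout cells, 69 bp at P0 and 114 bp at P3. The range of 275 bp was the widest among the start regions. The E13.5 knockout peak, the most distant, was the only one that did not cover the start.

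*Sycp3* (gene ID 20962, chromosome 10, 88459587 to 88473236, + strand), which encodes an axis protein, had a start peak centred within 30 bp of the start in each of the 6 lists. The centres lay at 15, -18, -7 and 30 bp in E13.5 heterozygous, E13.5 knockout, E16.5 heterozygous and E16.5 knockout cells, at 13 bp at P0 and at -7 bp at P3, where negative values are before the start. A second peak at chr10:88460412-88460912, centred 1075 bp after the start, was present at P0 only. Both single-list peaks of *Sycp1* and *Sycp3* were thus from the P0 list, which is the longest, and 12.9% of all merged regions were present in P0 alone.

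*Hormad1* (gene ID 67981, chromosome 3, 95559677 to 95587863, + strand), whose product loads onto unsynapsed axes, had 2 regions in all 6 lists. At the start the centres lay 15 and 164 bp before it in E13.5 heterozygous and knockout cells, 36 and 42 bp before it in E16.5 heterozygous and knockout cells, 35 bp before it at P0 and 133 bp before it at P3. The other region, chr3:95588577-95589105, lay beyond the end of the gene, within 1 kb of listed starts of *Golph3l* and *Gm40097*. It counted for *Hormad1* only through the 5 kb flank.

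*Spo11* (gene ID 26972, chromosome 2, 172977379 to 172993576), which encodes the enzyme that makes the meiotic double-strand breaks, had 1 peak in every list, but its place changed between E13.5 and E16.5. At E13.5 it lay at the lower outer end of the gene, at chr2:172977366-172977866 in heterozygous and chr2:172977325-172977825 in knockout cells. No later list had a peak there. At E16.5 the peak lay inside the gene, at chr2:172979741-172980241 in heterozygous and chr2:172979637-172980137 in knockout cells.

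The P0 peak (chr2:172979702-172980202) and the P3 peak (chr2:172979714-172980214) of *Spo11* were in that second place too. The 2 regions did not overlap and lay 1770 bp apart, and both genotypes showed the same change of place. Of all merged regions, 6.93% were present in the E13.5 lists alone and 8.93% in every list but those. The long non-coding RNA gene *Gm52538* (chromosome 2, 172973547 to 172979120, - strand) overlaps the first region, and the second begins 517 bp upstream of its listed start. Which of the genes either peak belongs to cannot be told apart from positions. Of 4392 protein-coding genes without a listed start, 0.729% had a peak within 1 kb of an outer end at E13.5 only, and 50.2% had one in all 6 lists.

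*Prdm9* (gene ID 213389, chromosome 17, 15543072 to 15564374, - strand) encodes the histone methyltransferase that places recombination hotspots. It has 2 listed starts, 15564354 and 15563331, and its only region, chr17:15564096-15564728, covered the upstream one in all 6 lists. The centres lay 8 bp after that start and 0 bp from it in E13.5 heterozygous and knockout cells. They lay 19 and 108 bp before it in E16.5 heterozygous and knockout cells, 83 bp before it at P0 and 124 bp before it at P3.

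*Dmc1* (gene ID 13404, chromosome 15, 79561497 to 79605159, - strand), the meiosis-specific recombinase, had 1 region at chr15:79604972-79605549. Its peaks were centred 148, 157, 113 and 123 bp before the listed start in E13.5 heterozygous, E13.5 knockout, E16.5 heterozygous and E16.5 knockout cells, 134 bp before it at P0 and 190 bp before it at P3. All 6 covered the start. No peak lay in the rest of its 43.7 kb span or within 5 kb of it.

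At 4 of the 7 genes open in all lists, *Meioc*, *Rec8*, *Prdm9* and *Dmc1*, the start region was the only one in the window. Among 9623 protein-coding genes with a listed start and a start peak in all 6 lists, 30.8% had 1 region. From the start peak of *Sycp1* the nearest other peak in the same list was 21.2 to 60.1 kb away (median 59.8 kb over the lists). For *Sycp3* this was 1.06 kb at P0, by its second peak, and the median over the lists was 41.05 kb. For *Rec8*, *Prdm9* and *Dmc1* the medians were 13.9, 13.1 and 12.1 kb. Over all peaks within 1 kb of a listed protein-coding start the median distance was 14.6 to 18.6 kb per list, so these 3 lay below that range, and *Sycp1* and *Sycp3* above it, as did *Meioc* (28.4 kb) and *Hormad1* (29.2 kb).

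The genotypes differed at 1 member at E13.5 and at none at E16.5. At E13.5, 1 of 10 member peaks of the heterozygous list had no overlap in the knockout list (10%, 95% Wilson interval 1.79 to 40.4, counting error only), namely the *Stra8* region furthest into the gene. In the other direction the count was also 1 of 10, the second *Stra8* region. Over all peaks 21.3% of the heterozygous and 19.6% of the knockout list had no overlap. At E16.5 the counts were 0 of 10 in both lists, which allows up to 27.8% by the same interval, beside 18.6% and 23.5% over all peaks. Each of these shares over all peaks lies inside the interval of the members, so a difference from them was not detectable with 10 peaks. The sets are also not alike. Most member peaks lie at gene starts, whereas 12036 of 107032 merged regions lay within 1 kb of a listed protein-coding start.

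Start peaks differed between genotypes in 2.76% of protein-coding genes with a listed start at E13.5 and in 3.92% at E16.5. Of the 8 members with a listed start, *Stra8* differed at E13.5, through the region whose edge reaches into the window, and with 500 bp it did not. Shared member peaks were displaced between genotypes by a median of 15 bp over 9 pairs at E13.5 and 29.5 bp over 10 pairs at E16.5, beside 26 and 34 bp over all shared peaks. The largest displacements were at E13.5, 163 bp in *Sycp1* and 149 bp in *Hormad1*, both above 110 bp, which 90% of all shared peaks did not exceed. At E16.5 the largest was 104 bp, in *Spo11*, beside 141 bp for 90% of all shared peaks.

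The members' promoters were then compared by sequence. Starts rich in CpG are open in many tissues, and CpG number and start peaks went together over all genes. Of listed protein-coding starts with 0 to 2 CpG in the 250 bases before them, 3.83% had a peak within 1 kb in all 6 lists. The share was 18.9% with 3 to 5 CpG, 54.6% with 6 to 10, 80.6% with 11 to 15 and 86.3% with 16 to 20. The promoter of *Stra8* had 5 CpG (percentile 35.8 of 21262 promoters), the fewest among the 8 members with an entry.

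The 7 genes open in all 6 lists had from 10 (*Rec8*) to 22 CpG (*Meioc*) at the start their peak covered. *Sycp3* and *Dmc1* had 12 each, *Prdm9* 13, *Sycp1* 17 and *Hormad1* 19. The median over all promoters was 10. These 7 therefore lay in classes in which 54.6% to 87.6% of starts were open in all 6 lists, and the part of CpG content in their accessibility was not tested.

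**Figure D3:**
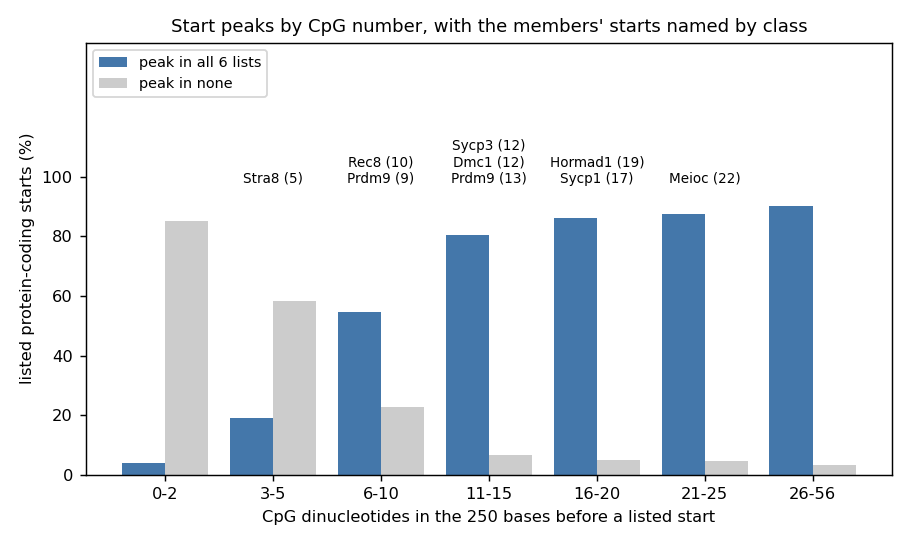
Bars give the percentage of listed protein-coding starts with a peak within 1 kb in all 6 lists (blue) or in none (grey), by the number of CpG in the 250 bases before the start. The members are named above their class with their CpG number: *Stra8* (5) stands where 18.9% of starts were open in all 6 lists, the others where 54.6% or more were; *Prdm9* appears for each of its starts.

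E-boxes (CACGTG) occurred in the 250 bases before the start of 3 of the 8 members, *Sycp1*, *Sycp3* and *Hormad1*, and in 6.63% of 21262 protein-coding promoters. The E2F-type site (TTCCCGC or GCGGGAA) occurred in 4, *Sycp3*, *Hormad1*, *Meioc* and *Prdm9*, and in 4.96% of promoters. Both stood together in *Sycp3* and *Hormad1*, and in 0.433% (92) of promoters. The 2 E-boxes of *Sycp3* begin 64 and 43 bases before the start and its E2F-type site 147 bases before it. In *Hormad1* the E-boxes begin 57 and 20 bases and the E2F-type site 95 bases before the first listed start. The STRA8-type motif was found only before the upstream start of *Prdm9* and in 6.75% of promoters.

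Of the 92 promoters with both motifs, 83.7% had a start peak in all 6 lists, against 52.6% of all listed starts. Their median CpG number was 22 against 10, and the part of either property was not tested. *Dmc1*, *Rec8* and *Stra8* held none of the 3 motifs in this window, of which *Dmc1* and *Rec8* were open in all 6 lists.

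The wider pathway was examined with 47 other meiotic genes, grouped by role. A start peak in all 6 lists was found at 37 of them (78.7%), beside 54.0% of all 21883 protein-coding genes under the same rule, which uses both outer ends where no start is listed. Over the 39 with a listed start the count was 31 (79.5%), beside the 55.0% above. Per list the number with a start peak was 39 and 38 in E13.5 heterozygous and knockout cells, 43 in each E16.5 list, 43 at P0 and 42 at P3, and the E13.5 lists were also the shortest.

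Members and others together, all 8 synaptonemal complex genes were open in all 6 lists, *Sycp1* and *Sycp3* with *Sycp2*, *Syce1*, *Syce2*, *Syce3*, *Tex12* and *Six6os1*. So were 9 of 10 genes of crossover formation, 5 of 6 entry regulators, 4 of 5 genes of telomere attachment and 6 of 8 of strand exchange. Cohesin, chromosome axis and hotspot specification each had 3 of 4. The share was lowest for double-strand break formation, the group of *Spo11*, with 3 of 7 (42.9%), beside 54.0% of all protein-coding genes. Of this group, *Rec114* and *Ankrd31* lacked a start peak in the E13.5 knockout list only. In this group *Top6bl*, *Mei4* and *Iho1* were open in all 6 lists. *Mei1* had no start peak in any list, nor did *Rad21l* (cohesin) or *Shoc1* (crossover formation), and these were named after their values were seen. *Rad21l* did have a peak in all 6 lists, centred 2206 to 2250 bp upstream of its listed start. It lay over the upper outer end of the gene at 151670622 in all 6. *Mei1* and *Shoc1* likewise had a peak in the gene bounds plus 5 kb on each side in all 6 lists. At E13.5 the *Mei1* peak nearest its listed start was centred 2361 bp (heterozygous) and 2345 bp (knockout) upstream. These genes were thus not without an accessible region in or near them.

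**Figure D4:**
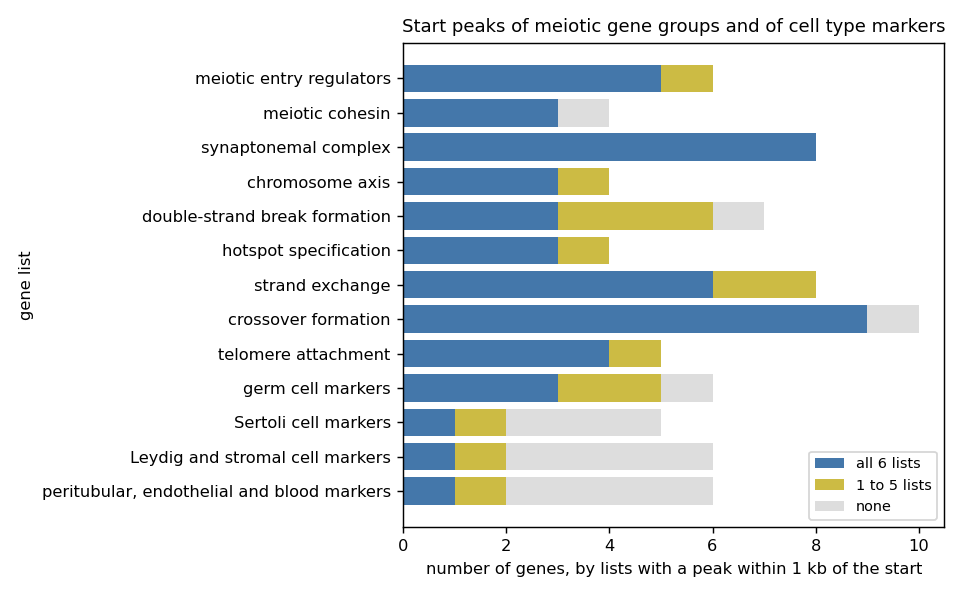
Bars give the number of genes of each list with a peak within 1 kb of the start in all 6 peak lists, in 1 to 5, or in none. Where no start is listed, either outer end was used. The synaptonemal complex bar is complete (8 of 8), double-strand break formation has 3 of 7 in all lists, and 11 of 17 somatic markers have none.

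No other meiotic gene shared the pattern of *Stra8* or that of *Spo11* over the 6 lists. These patterns were shown by 0.0629% of protein-coding genes with a listed start (*Stra8*) and 0.729% of those without one (*Spo11*). A match among 47 genes was therefore unlikely from the outset, and its absence sets neither gene apart. Start peaks of 5 other genes differed between genotypes. At E13.5 *Rec114* (chr9:58741227-58741727) and *Ankrd31* (chr13:96748138-96748638), which both encode partners of SPO11 in break formation, had one in heterozygous cells only. *Rec114* still had a knockout peak inside its gene bounds, centred 64511 bp upstream of the listed start. *Ankrd31* had none in its bounds plus 5 kb in that list. *Spata22*, needed for strand exchange, had a start peak in knockout cells only (chr11:73329276-73329776). All 3 were open in both genotypes at E16.5 and in both postnatal lists.

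At E16.5 *Hsf2bp* had a start peak in knockout cells only (chr17:32034162-32034662). This depends on the window: the other 5 lists held a peak centred 1755 to 1974 bp upstream of that start, which a window of 2 kb would count. *Majin*, which tethers telomeres to the nuclear envelope, had a start peak in heterozygous cells only (chr19:6184049-6184549, lower outer end). This depends on the window too. The knockout list held a peak centred 2157 bp from the upper outer end (chr19:6226137-6226637), whose edge a window of 2 kb would reach. Of the 47 other genes, 3 (6.38%) thus differed at E13.5 and 2 (4.26%) at E16.5, beside 3.18% and 4.31% of all protein-coding genes under the same rule. Each of these 5 differences rests on a single peak.

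Among the other meiotic genes, *Sycp2l*, *Morc2b* and *Majin* had no start peak in either E13.5 list but one in later lists. The share of all protein-coding genes that did the same was not computed, and the E13.5 lists were the shortest. These genes are therefore not read as a set that opens later. *Sycp2l*, a homologue of *Sycp2*, had no start peak at E13.5 and one in every later list, and *Morc2b*, a member of the MORC family, had one at E16.5 in both genotypes and at P0 only. *Majin* had one in E16.5 heterozygous cells, at P0 and at P3. At E13.5 it had peaks centred 2379 bp (heterozygous) and 2421 bp (knockout) from its lower outer end. Others lay 2098 bp (heterozygous) and 2138 bp (knockout) from its upper outer end. *Sycp2l* and *Morc2b* were named after their values were seen. At E13.5 the nearest peak to the *Sycp2l* start lay 34830 bp (heterozygous) and 34825 bp (knockout) upstream.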

How the data were processed

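ATAC-seq peak positions were deposited by the authors as 8 lists, 1 per stage and genotype, with the chromosome, start and end of each peak and no other value. The submitters' processing notes name bcl2fastq 2.20, cutadapt 1.18, Bowtie2 2.3.4.1, deepTools 3.5.0, HOMER 4.10 and build mm10, without the role of each. The threshold for peaks, and any pooling of replicates, are not given in the sources used here. Fixed peak widths hide differences in breadth, and the number of peaks in a list also depends on depth and threshold.

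Groups were taken from sample titles. The members and gene lists were chosen with earlier results of these data known. Positions are 1-based, on GRCm38 (mm10). Of outer ends of protein-coding genes, 25.6% to 27.3% lay within 250 bp of a peak, and 2.5% to 3.39% when moved by 10 kb. Genes and starts came from RefSeq tables of GRCm38.p6, in which 79 of 79 listed entries were matched, 4 by an older name. The tables have no exons, so introns and exons are not told apart. A peak belongs to a window when at least 1 bp overlaps. Starts are those of the table, or both outer ends where it has none. Regions are merged overlapping peaks of the 6 lists.

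Besides the 9 members, the text names by rule the other listed genes that share the pattern of *Stra8* or *Spo11* or differ between genotypes. With 1 list per group no test across samples was made. Counts were computed with Python 3.11.15 and pandas 2.3.3, were checked against bedtools 2.31.1 for 6 lists, with equal counts, and were tested on simulated data, where 200 of 200 planted start peaks were found among 20598 genes. The alternatives were flanks of 0 and 10 kb, peak midpoints, start windows of 500 bp and 2 kb, 50% reciprocal overlap, peaks within 500 bp as shared, and all annotated genes. A peak covering the listed start was added after the data were seen.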

Additional observations from a re-analysis of the deposited data

How the results depend on the processing

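No paired analysis was possible because the peak lists are per group, with no columns for single samples; no replicate could be left out for that reason. Of 66 counts recomputed under the alternatives, 65 stayed within 1.5 times the reported count and 1 did not. The 6 shares of all genes, judged by their 95% Wilson intervals, all left them. All 9 members had a peak in every list with no flank, with a flank of 10 kb and by peak midpoints. With a flank of 10 kb the number of member peaks at P0 rose from 12 to 19, since a wider window takes in more peaks. Counting all annotated genes lowered the share of genes with a peak to 50.4% (E13.5 heterozygous), 50.1% (E13.5 knockout), 54.3% (E16.5 heterozygous), 56.1% (E16.5 knockout), 60.2% (P0) and 52.6% (P3). The genes this adds are not protein-coding, and a smaller share of them had a peak. Why their share is smaller was not tested. The start window decides whether *Stra8* has a start peak outside P3, as given with its values. The lists give neither depth nor peak height, so a weak peak just above a threshold and a strong one look the same.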
